A study of Mus musculus with 6 samples.

Results

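Ikaros and Runx family factors are transcription factors of blood cells. Their genes were read here in sorted mouse bone marrow progenitors with and without active Notch2. The list held 9 genes, which were Ikzf1 to Ikzf5, Runx1, Runx2, the Runx partner Cbfb and the corepressor gene Runx1t1. Members were the array probe sets annotated with exactly 1 of these symbols and no other gene. They numbered 26 probe sets for 8 genes, of 45101 probe sets deposited, and the annotation used here named no probe set for Runx2. Probe sets were matched by gene name alone, but the genes were chosen with earlier results of these arrays known. The group comparison is therefore not fully independent of the choice.

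Cells without lineage markers or Sca1 but with cKit, which the labels call myeloerythroid progenitors, were sorted from bone marrow at 6 weeks of age and profiled on 6 Affymetrix arrays. The ICN2-positive group carried Rosa-lsl-ICN2 and Mx1-cre+, and the ICN2-negative littermates carried Mx1-cre+ without the transgene, with 3 arrays in each group. Both groups received polyIC 3 times on alternate days at a dose of 20 mcg/g, and cells were taken 1 week after the end. PolyIC induces interferon and thereby the Mx1-driven Cre, which removes a stop cassette at Rosa26 and lets the cell make ICN2, the intracellular part of Notch2. Mx1-cre acts in many interferon-responsive cell types, and the labels do not give the share of sorted cells that recombined. All ICN2-negative samples are labelled female and all ICN2-positive samples male, and the effects of genotype and of sex therefore cannot be told apart here. Whether replicates came from separate animals is not stated, so the p-values reflect the spread among these arrays alone, part of which may be technical.

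Ikaros family proteins bind DNA through zinc fingers at their N-terminal end and pair with each other through zinc fingers at the C-terminal end. They act largely through the NuRD chromatin remodelling complex, and Ikaros itself is needed for lymphoid development and restrains Notch target genes in T cell precursors. Runx proteins bind DNA through the Runt domain, which grips DNA more tightly once joined to Cbfb. Runx1 is needed for the first blood stem cells and later steers megakaryocyte, lymphoid and myeloid differentiation.

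ICN2-positive replicate 1 stood apart from the other arrays. Across all probe sets other than array controls its correlation was 0.984 to ICN2-positive replicate 2 and 0.987 to replicate 3, which correlated with each other at 0.995. The 3 ICN2-negative arrays correlated with each other at 0.994 to 0.995. Granulocyte and monocyte progenitor markers were also lowest in this array. The summed intensity of the 9 markers measured was 13.4 on the log2 scale there, 15.8 and 15.9 in the other ICN2-positive arrays and 16.3 to 16.5 in the ICN2-negative arrays. Kit, the gene of the sorted surface receptor, had a log2 intensity of 10.15 in this array and 10.38 to 10.86 in the other 5. The log2 difference between the 3' and 5' control probe sets, a sign of RNA quality, was largest in this array for actin (1.01 beside 0.71 to 0.85), Gapdh (0.73 beside 0.63 to 0.66) and pyruvate carboxylase (1.97 beside 1.46 to 1.90). For the transferrin receptor it was 2.92, within the 2.86 to 3.28 of the other 5 arrays. The part of RNA quality in the member values was not tested. Member values are given with and without this array.

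No member differed between the genotypes at an adjusted p of 0.05 in limma over all 6 arrays. Of the 26 probe sets, 14 passed the intensity filter, and they read 7 genes. None of the 14 was called, against 2.65% of all 27424 probe sets tested, and none had an unadjusted p under 0.05. The median difference of the 14 (ICN2-positive minus ICN2-negative, log2) was 0.02, beside 0.03 over all probe sets tested. Means were higher in ICN2-positive cells for 8 of the 14 and lower for 6. The 8 include Ikzf4 1438274_at, which passed the filter through its ICN2-positive arrays alone, so the filter set its direction. Every one of the 14 95% intervals of the difference included 0, but their width differed widely between genes. Read with 1 probe set per gene, none of the 7 genes was called either, beside 4.36% of 12837 genes. A bulk array cannot tell fewer expressing cells from less RNA per cell.

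**Figure D1:**
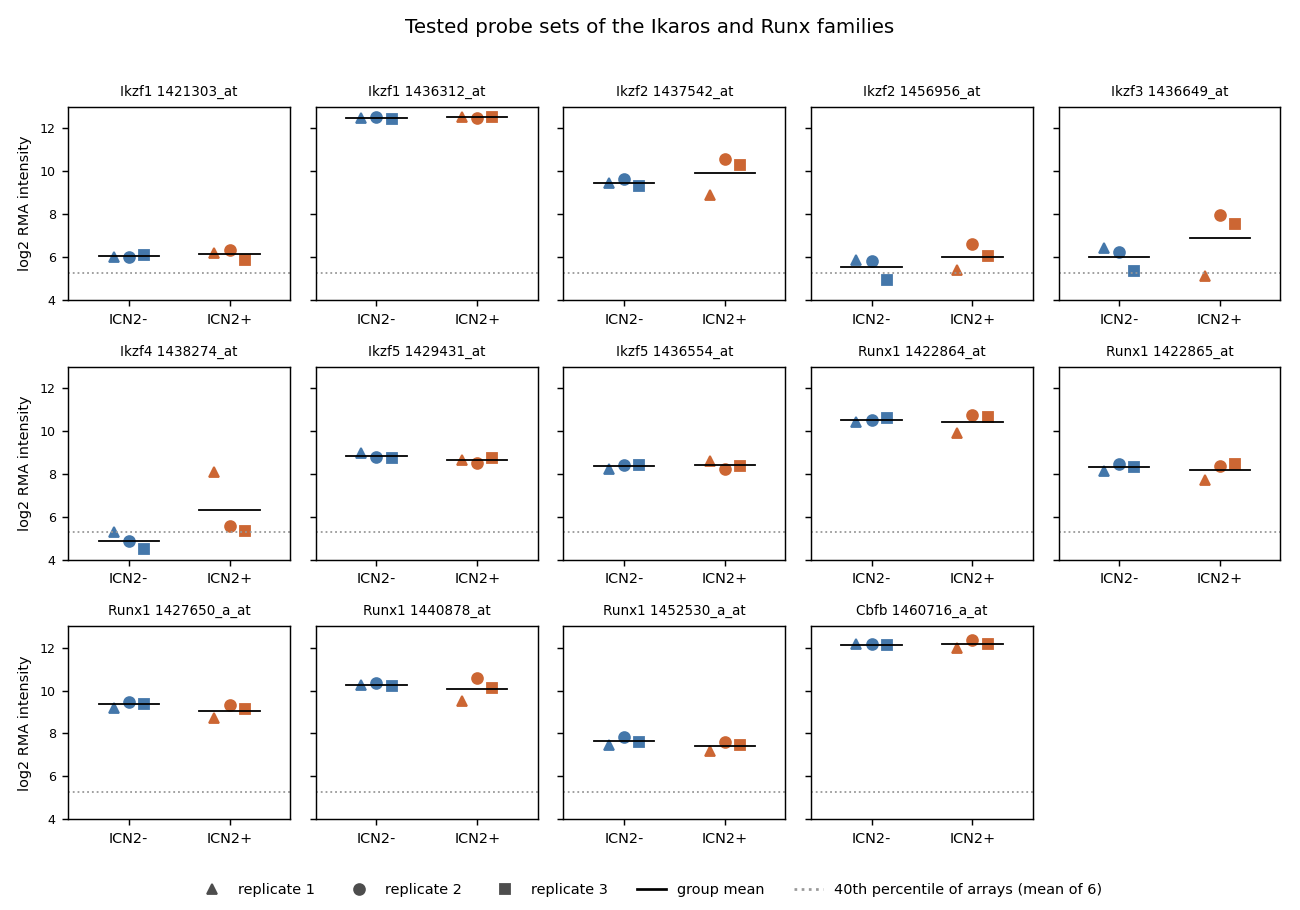
Log2 RMA intensity (vertical axis) of the 14 tested member probe sets on each array, with ICN2-negative arrays in blue, ICN2-positive arrays in orange, 1 marker shape per replicate number, group means as bars and the 40th percentile as a dotted line. In Ikzf2 and Ikzf3 the replicate 1 triangle of the ICN2-positive group lies below the other ICN2-positive arrays, and in Ikzf4 it lies above them at 8.08.

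Ikzf1 encodes Ikaros, the founding member of the family. Its bright probe set, 1436312_at, read 12.50, 12.53 and 12.45 (log2 intensity) in ICN2-negative replicates 1, 2 and 3 and 12.54, 12.47 and 12.53 in the ICN2-positive ones. The groups overlapped and all 6 arrays lay within a narrow band, ICN2-positive replicate 1 included. The difference was 0.02 ± 0.07 (SE, n = 3 per group, adjusted p = 0.891 in limma), with a 95% interval from -0.15 to 0.19 on the log2 scale. This was the narrowest interval of the 14 tested member probe sets. Without ICN2-positive replicate 1 the 95% interval of the log2 difference was -0.19 to 0.20. The other probe set, 1421303_at, was dim, with group means of 6.06 ± 0.06 and 6.14 ± 0.25 (SD, n = 3), and differed by 0.08 ± 0.14 (SE, adjusted p = 0.759).

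Ikzf2 encodes Helios, a relative of Ikaros known from T cells and blood stem cells. Probe set 1437542_at read 9.45, 9.64 and 9.33 in ICN2-negative replicates 1 to 3. In the ICN2-positive group it read 8.89, 10.60 and 10.31. Replicates 2 and 3 of that group lay above all ICN2-negative arrays and replicate 1 lay below all of them, so the groups overlapped. The difference was 0.46 ± 0.45 (SE, adjusted p = 0.571 in limma), with a 95% interval from -0.65 to 1.57. Without ICN2-positive replicate 1 it was 0.98 ± 0.14 (1.97-fold, adjusted p = 0.041, 95% interval 0.62 to 1.35). That was the single call among the 14 probe sets in this fit, in which 3.14% of all probe sets were called. Leaving out any other single array gave differences of 0.13 to 0.54, none of them called.

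The second Ikzf2 probe set, 1456956_at, was dimmer, at 5.89, 5.83 and 4.94 in the ICN2-negative arrays and 5.43, 6.60 and 6.05 in the ICN2-positive ones. It had the same order within the ICN2-positive group, with replicate 1 lowest. Its difference was 0.47 ± 0.39 (adjusted p = 0.495) with all arrays and 0.77 ± 0.35 (adjusted p = 0.275) without ICN2-positive replicate 1. The third, 1421643_at, lay below the 40th percentile on all 6 arrays and was not tested. It read 4.70, 4.97 and 4.70, then 5.06, 5.21 and 5.22, without overlap of the groups.

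Ikzf3 encodes Aiolos, the family member best known from B and T lymphocytes. Probe set 1436649_at read 6.42, 6.27 and 5.35 in the ICN2-negative arrays and 5.13, 7.96 and 7.56 in the ICN2-positive arrays. ICN2-positive replicates 2 and 3 were the highest of the 6 arrays and ICN2-positive replicate 1 was the lowest, below its array's 40th percentile of 5.30. The SD of the ICN2-positive group was 1.53, higher than for 99.2% of all probe sets tested. The difference was 0.87 ± 0.79 (SE, adjusted p = 0.54 in limma), with a 95% interval from -1.07 to 2.81. Without ICN2-positive replicate 1 it was 1.75 ± 0.36 (3.36-fold), with a 95% interval from 0.83 to 2.67, and it was not called over all probe sets (adjusted p = 0.077).

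With array weights, which give a less typical array less influence, both Ikzf2 and Ikzf3 were called at 1 probe set per gene (adjusted p = 0.0378 and 0.0381). These 2 of 7 member genes stood beside 25.4% of all genes called in that fit, a share near the background. Neither was called in the weighted fit over all probe sets (adjusted p = 0.079 for each), in which 14.5% of probe sets were called. The 2 dim Ikzf3 probe sets, 1441088_at and 1453378_at, did not pass the filter, and in both ICN2-positive replicates 2 and 3 lay above every ICN2-negative array. Replicate 1 of that group was the highest array in 1453378_at, at 3.33. In 1441088_at it lay within the ICN2-negative range, at 4.29.

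Markers of other cell types also differed between the arrays in which Ikzf2 and Ikzf3 differed. Of 10 T cell markers listed, 7 were measured and none was called. Their summed intensity was 8.33 to 9.35 on the log2 scale in the ICN2-negative arrays and 9.97, 11.5 and 10.2 in ICN2-positive replicates 1, 2 and 3. Cd7 was the brightest of the 7 on every array, at 8.12, 11.02 and 9.79 in these replicates. It alone of the 7 had the order of the sum within this group. Bcl11b (7.95, 7.57 and 5.73) and Cd3d (7.04, 7.02 and 5.74) were highest in replicate 1. Cd4 was lower in the ICN2-positive arrays, with a mean of 5.17 beside 5.56 in the ICN2-negative ones. It passed the filter through the ICN2-negative arrays alone, so the filter set its direction. Ptcra, the pre-T cell receptor alpha chain, lay below the 40th percentile on all 6 arrays. B cell markers had summed intensities of 11.2 to 13.3 in the ICN2-negative and 9.33 to 10.8 in the ICN2-positive arrays, with none of 6 measured genes called and the master regulator gene Pax5 below the 40th percentile on all 6 arrays. The sum of mast cell and basophil markers followed the order of Ikzf2 within the ICN2-positive group. It was 11.6, 14.7 and 14.4 in replicates 1, 2 and 3 beside 13.8 to 14.1 in the ICN2-negative arrays. Not every marker of this list had that order. In that group Mcpt4 (8.70, 8.65 and 6.97) and Tpsb2 (5.87, 5.81 and 5.75) were highest in replicate 1. Cma1 (6.57, 6.92 and 6.16) was lowest in replicate 3. Of 8 measured 1 was called, higher. That gene, Mcpt4, passed the filter through the ICN2-positive arrays alone, so the filter set its direction. The sum of stem cell markers had the order of Ikzf2 too, at 9.95, 11.6 and 11.2 beside 9.11 to 10.1, with none of 6 measured genes called. Of these Mecom was highest in ICN2-positive replicate 3 (7.13, 8.28 and 8.42). The sum of natural killer cell markers also had the order of Ikzf2. It was 13.2, 14.2 and 13.9 in ICN2-positive replicates 1, 2 and 3 beside 13.5 to 13.7 in the ICN2-negative arrays. Prf1 of this list did not have it (9.08, 9.26 and 9.27). Of 8 natural killer cell markers listed 4 were measured and 1 was called. That was Gzma, a granzyme gene, which was higher in the ICN2-positive arrays by 5.94 on the log2 scale (adjusted p = 0.0129 in limma). The natural killer cell regulator genes Tbx21 and Eomes lay below the 40th percentile on all 6 arrays. The order was not particular to these lists. It also held for the sums of T cell, B cell and granulocyte and monocyte progenitor markers, although among the single T cell markers only Cd7 had it. The megakaryocyte sum had it too (10.2, 11.5 and 10.9), as did the plasmacytoid dendritic cell sum (12.7, 12.9 and 12.8 in ICN2-positive replicates 1, 2 and 3). The erythroid sum did not have it. Markers were also called without ICN2-positive replicate 1, the fit in which Ikzf2 was called. Those called higher were 2 stem cell, 2 mast cell and basophil (Mcpt4 among them), 1 natural killer cell and 1 T cell marker. Those called lower were 6 of 9 granulocyte and monocyte progenitor markers and 1 B cell marker, beside 5.98% of all genes called in either direction. The part of these cell types in the Ikzf2 and Ikzf3 values was not tested.

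Ikzf4 encodes Eos, a relative of Ikaros known from regulatory T cells. Probe set 1438274_at read 5.28, 4.89 and 4.52 in the ICN2-negative arrays, all below the 40th percentile of their array. In the ICN2-positive arrays it read 8.08, 5.55 and 5.33. Replicate 1 stood far above the other 5 arrays, and replicates 2 and 3 lay just over the percentile. The groups did not overlap, as in 33.7% of all probe sets tested, and this was the only tested member probe set for which that held. The difference was 1.43 ± 0.75 (SE, adjusted p = 0.306 in limma), with a 95% interval from -0.43 to 3.29. The probe set passed the filter through its ICN2-positive arrays alone, so the direction of its difference was set by the filter. Set against the 40th percentile in place of the dim values, the mean of the ICN2-positive arrays was 2.05-fold higher. Without ICN2-positive replicate 1 it was 1.12-fold higher. These folds describe the arrays at hand, since the 95% interval of the difference included 0 with and without that array.

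The other 2 Ikzf4 probe sets did not pass the filter, and both were also highest in ICN2-positive replicate 1. Probe set 1457342_at read 6.17 there, against 4.37 to 4.60 in the ICN2-negative arrays and 4.46 and 4.59 in ICN2-positive replicates 2 and 3. Probe set 1460664_at read 4.23 there and 3.85 to 3.97 on the other 5 arrays. Thus the array in which the tested Ikzf3 probe set was lowest was the one in which Ikzf4 was highest. The dim Ikzf3 probe sets were not lowest in that array. Erythroid markers had their highest summed log2 intensity there too, at 14.0 beside 13.7 to 13.8 in the other 5 arrays. Klf1, Epor and Gata1 were highest in that array. Alas2 was not, at 9.37 beside 9.91 and 9.52 in ICN2-negative replicates 1 and 2. Of 7 listed 4 were measured and none was called, and the globin gene Hba-a1 lay below the 40th percentile on all 6 arrays. The part of erythroid cells in the Ikzf4 values was not tested.

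Ikzf5 encodes Pegasus, the most divergent member of the family. Probe set 1429431_at read 8.97, 8.80 and 8.72 in the ICN2-negative arrays and 8.65, 8.53 and 8.75 in the ICN2-positive arrays, so the groups overlapped. Its difference was -0.19 ± 0.10 (SE, adjusted p = 0.318 in limma), with a 95% interval from -0.44 to 0.06. Probe set 1436554_at had means of 8.36 ± 0.11 and 8.41 ± 0.17 (SD, n = 3) and differed by 0.05 ± 0.12 (SE, adjusted p = 0.814). The ICN2-positive SD was 0.11 and 0.17 in these probe sets, under those of the tested Ikzf2, Ikzf3 and Ikzf4 probe sets.

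**Figure D2:**
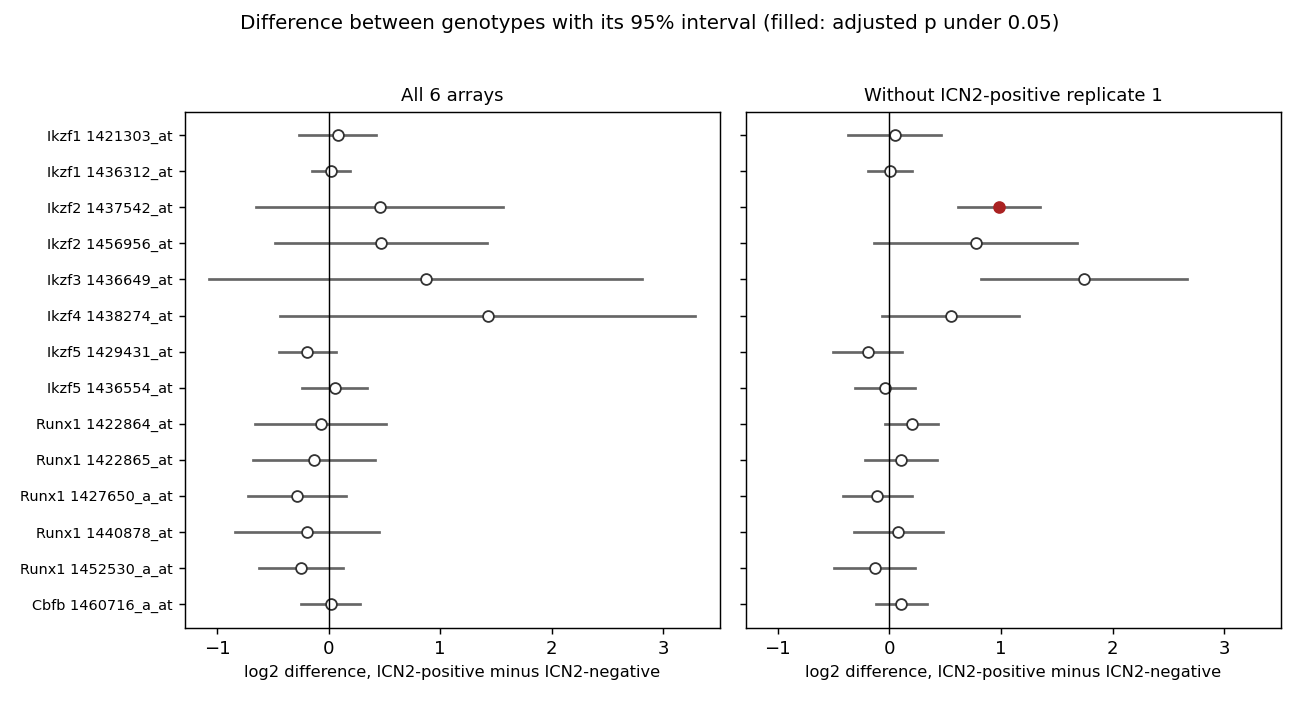
Log2 difference between genotypes (horizontal axis, ICN2-positive minus ICN2-negative) of the 14 tested member probe sets with 95% intervals from limma, for all 6 arrays on the left and without ICN2-positive replicate 1 on the right. Filled points have an adjusted p under 0.05, which holds for none on the left and for Ikzf2 1437542_at at 0.98 on the right.

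Runx1 encodes the DNA-binding subunit of the core binding factor. A distal and a proximal start region begin different transcripts of the gene. Both are shown because the 5 tested Runx1 probe sets were lowest in the same array, while the annotation used here ties no probe set to either start. Each line gives the 250 bases before the start (RefSeq, GRCm38.p6, minus strand), with every CG dinucleotide in capitals.
Runx1 distal, chr16:92826075-92826324: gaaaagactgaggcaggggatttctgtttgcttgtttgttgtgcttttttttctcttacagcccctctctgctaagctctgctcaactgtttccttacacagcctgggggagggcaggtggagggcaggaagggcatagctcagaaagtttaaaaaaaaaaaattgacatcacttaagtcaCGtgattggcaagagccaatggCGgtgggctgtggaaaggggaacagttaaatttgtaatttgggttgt
Runx1 proximal, chr16:92697330-92697579: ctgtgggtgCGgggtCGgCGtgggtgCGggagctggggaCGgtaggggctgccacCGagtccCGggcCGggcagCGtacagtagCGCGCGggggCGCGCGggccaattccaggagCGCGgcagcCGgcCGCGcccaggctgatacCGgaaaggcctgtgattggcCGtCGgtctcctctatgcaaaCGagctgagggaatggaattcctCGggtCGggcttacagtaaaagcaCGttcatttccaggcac

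The distal window held 2 CG dinucleotides and was 45.6% G and C. The proximal window held 27 and was 67.6% G and C, beside a median of 6 CG dinucleotides over 32851 windows of this length. The Runx core TGTGGT was searched on both strands and lies in 14% of all windows. Neither Runx1 window held it. TGGGAA, a core shared by Ikaros and the Notch effector Rbpj, lies in 21.6% of all windows and was not found in either one. Of 7 windows listed for the 9 genes (Ikzf1, Ikzf5, Runx1, Runx2 and Cbfb), TGTGGT occurred in 1, that of Runx2, and TGGGAA in none. These counts describe letters and not binding.

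The brightest Runx1 probe set, 1422864_at, read 10.41, 10.51 and 10.60 in the ICN2-negative arrays and 9.90, 10.76 and 10.66 in the ICN2-positive arrays. ICN2-positive replicate 1 was lowest of the 6, while replicates 2 and 3 lay above every ICN2-negative array. Its difference was -0.07 ± 0.24 (SE, adjusted p = 0.885 in limma), with a 95% interval from -0.66 to 0.52. Without ICN2-positive replicate 1 the sign turned, to 0.20 ± 0.09 (adjusted p = 0.276).

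Probe set 1440878_at read 10.25, 10.33 and 10.20 in the ICN2-negative arrays and 9.52, 10.57 and 10.12 in the ICN2-positive arrays. Here replicates 2 and 3 lay on either side of the ICN2-negative values. The difference was -0.19 ± 0.26 (SE, adjusted p = 0.693), and 0.08 ± 0.15 without ICN2-positive replicate 1. The other 3 tested Runx1 probe sets differed by -0.28 (1427650_a_at), -0.25 (1452530_a_at) and -0.13 (1422865_at) on the log2 scale, with adjusted p-values of 0.385, 0.376 and 0.76 in limma.

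All 5 tested Runx1 probe sets were lowest in ICN2-positive replicate 1, with log2 values of -0.74 to -0.48 relative to the ICN2-negative mean. The same array was lowest in 22.3% of all probe sets tested. The 5 share 1 gene and are not 5 independent readings. With that array left out, 3 of the 5 differences were above 0 and 2 below, between -0.13 and 0.20, and none was called. The dim sixth probe set, 1452531_at, went the other way and read highest in ICN2-positive replicate 1, at 5.57 against 4.87 to 5.31 elsewhere.

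Cbfb encodes the subunit that binds no DNA itself and stabilises Runx proteins on DNA. Its probe set, 1460716_a_at, read 12.16, 12.15 and 12.11 in the ICN2-negative arrays and 11.98, 12.33 and 12.16 in the ICN2-positive arrays. The groups overlapped, with ICN2-positive replicate 1 lowest and replicate 2 highest. The difference was 0.02 ± 0.11 (SE, adjusted p = 0.927 in limma), with a 95% interval from -0.24 to 0.28.

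Runx1t1 encodes ETO, a corepressor that becomes fused to RUNX1 in a form of acute myeloid leukemia. None of its 6 probe sets passed the filter, and 4 of them lay below the 40th percentile on all 6 arrays. Probe set 1437784_at read 4.77, 5.05 and 5.58 in the ICN2-negative arrays and 4.01, 4.16 and 3.76 in the ICN2-positive arrays. The groups did not overlap and the ICN2-positive arrays were lower, with means of 5.13 ± 0.41 and 3.98 ± 0.20 (SD, n = 3). Only ICN2-negative replicate 3 lay above its 40th percentile. In a fit with no filter its adjusted p was 0.081 in limma. The other 5 probe sets had mean differences of -0.55 to 0.17 on the log2 scale.

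**Figure D3:**
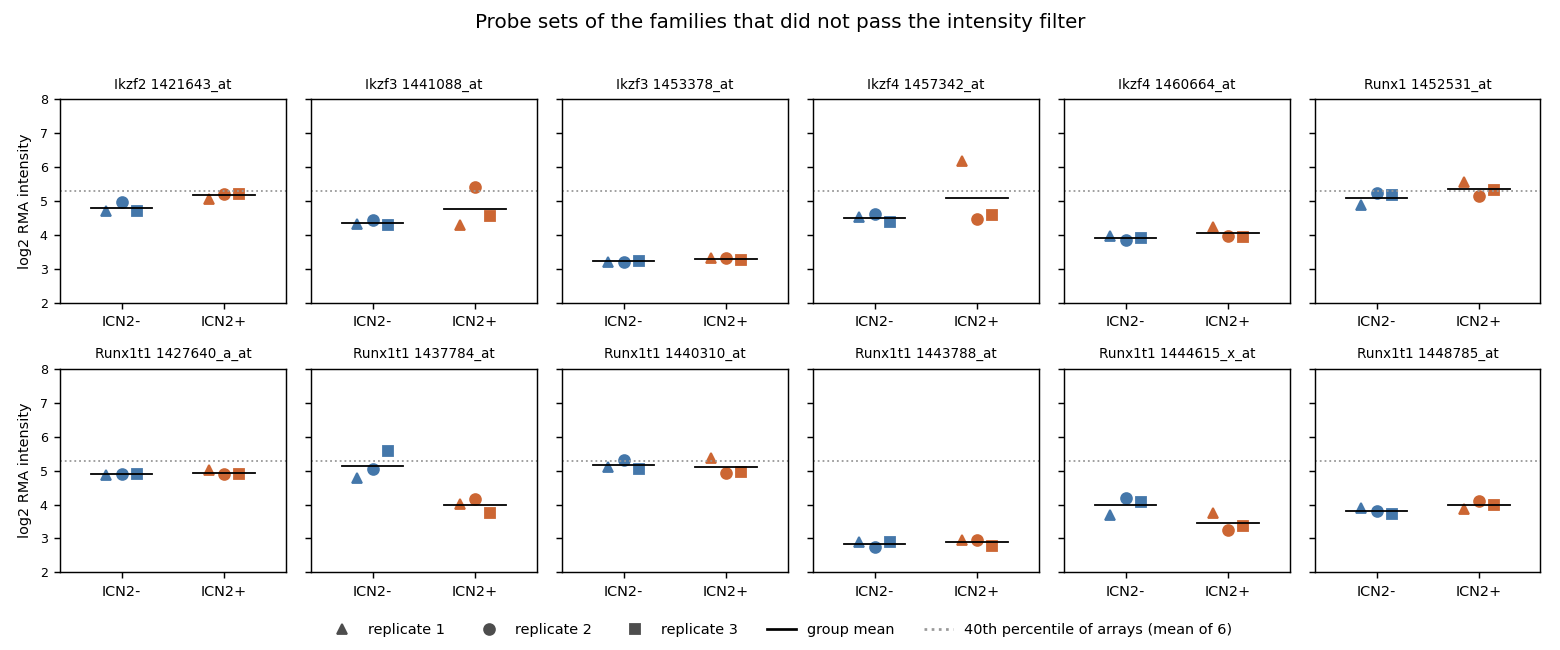
Log2 RMA intensity (vertical axis) on each array of the 12 member probe sets that did not pass the filter, drawn as in the plot of tested probe sets. Most points lie under the dotted 40th percentile near 5.3, Ikzf4 1457342_at reaches 6.17 in ICN2-positive replicate 1, and Runx1t1 1437784_at is lower in the 3 ICN2-positive arrays.

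Probe sets of a single member gene were compared with each other by limma's diffSplice, which asks whether a probe set changes unlike the rest of its gene. None of the 11 probe sets of Ikzf1, Ikzf2, Ikzf5 and Runx1 was called, beside 0.535% of 16648 probe sets tested in this way. None was called without ICN2-positive replicate 1 either, beside 0.667%. The lowest adjusted p over all 6 arrays was 0.843, for the pair of Ikzf5 probe sets, whose differences were 0.24 log2 units apart. With no filter, Runx1t1 1437784_at was called against the rest of its gene (adjusted p = 6.63e-04). All 6 Runx1t1 probe sets had failed the filter, so that contrast lies among dim values. The share of all probe sets called in the unfiltered fit is not given here, so the call has no background beside it.

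Members differed widely in their spread within the ICN2-positive group. The SD of the 3 ICN2-positive arrays exceeded that of the ICN2-negative arrays in 13 of the 14 tested probe sets, beside 61.8% of all probe sets tested. Ikzf5 1429431_at was the exception, and the 5 Runx1 probe sets among the 13 share 1 gene. Over all probe sets tested the median SD was 0.13 in the ICN2-negative and 0.17 in the ICN2-positive arrays. For the ICN2-positive arrays without replicate 1 it was 0.099. Member SDs without that array are not given here. For Ikzf2 1437542_at the ICN2-positive SD of 0.92 was higher than for 96.9% of all probe sets tested, and for Ikzf4 1438274_at the SD of 1.52 was higher than for 99.1%. For Ikzf1 1436312_at the SD of 0.04 was higher than for only 7.15%. Without ICN2-positive replicate 1, 5 of the 14 probe sets had ICN2-positive arrays outside the ICN2-negative range, all higher, beside 44.5% of all probe sets in either direction. Those 5 were both Ikzf2 probe sets and 1 each of Ikzf3, Ikzf4 and Runx1. The Ikzf4 probe set passed the filter through its ICN2-positive arrays alone, so the filter set its direction.

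Genes most alike in pattern were taken for the 2 member probe sets with the smallest p, by Pearson's r of log2 intensity over the 6 arrays. For Ikzf4 1438274_at these were Bloc1s5 (r = 0.999), Usp15 (r = 0.994) and Mrpl41 (r = 0.991). All of them were highest in ICN2-positive replicate 1, by less than 1 log2 unit over the next array, and r was 0.963 to 0.984 without it. For Ikzf5 1429431_at they were Tssk1 (r = 0.991), Meiob (r = 0.98) and Vopp1 (r = 0.975). An r above 0.9 was reached by 547 genes with the Ikzf4 probe set and by 49 with that of Ikzf5.

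Partners and textbook targets were read from lists at 1 probe set per gene. Of 15 NuRD and corepressor partners of the Ikaros family, all were measured and none was called, with a median difference of 0.08 beside 0.02 over all genes tested. Those with the smallest p were Mbd3, a NuRD core subunit, at 0.43 ± 0.10 (SE, adjusted p = 0.0708), Mta3, an alternative subunit, at 0.61 ± 0.15 (adjusted p = 0.0847), and Mta2 at 0.20 ± 0.06 (adjusted p = 0.119). The catalytic remodeller Chd4 differed by 0.11. None of the 5 genes of the cereblon ubiquitin ligase, which degrades Ikaros and Aiolos in the presence of thalidomide analogs in human cells, was called. Their median difference was -0.03, with the smallest p-values in Crbn (-0.21), Ddb1 (0.10) and Rbx1 (-0.28), whose adjusted p-values were 0.24, 0.331 and 0.479 in limma.

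Of 17 Runx partners and relatives 15 were measured and none was called, with a median of -0.05. Tle1, a Groucho corepressor, read 7.40, 6.33 and 6.50 in the ICN2-negative arrays and 7.90, 8.08 and 8.01 in the ICN2-positive arrays. The groups did not overlap, and the difference was 1.25 ± 0.29 (SE, adjusted p = 0.0709 in limma). It was called without ICN2-negative replicate 1 (1.58, adjusted p = 0.0131). Lmo2 and Ldb1, which join Runx1 and Tal1 in a progenitor transcription complex, differed by -0.27 ± 0.06 (adjusted p = 0.0724) and 0.36 ± 0.09 (adjusted p = 0.0864). Runx3, the third Runx gene of mammals, differed by 0.09 ± 0.13 (SE, adjusted p = 0.687).

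Of 7 textbook Runx1 targets of myeloid cells 5 were measured and none was called. Their median difference was -1.51, and -0.57 without ICN2-positive replicate 1. Csf1r, the receptor of macrophage colony-stimulating factor, read 12.45, 12.83 and 12.84 in the ICN2-negative arrays and 9.06, 11.89 and 11.76 in the ICN2-positive arrays. Elane, the neutrophil elastase gene, read 13.57, 13.73 and 13.68, then 10.26, 13.13 and 13.05 in the same order. Both were lower in all 3 ICN2-positive arrays and lowest in replicate 1. In that array the tested Runx1 probe sets and the granulocyte and monocyte progenitor markers were also lowest. Csf1r, Elane and Mpo are themselves among those markers, so the marker sum is no separate reading. The part of cell composition in these values was not tested. Both passed only without that array (Csf1r at -0.88, adjusted p = 0.0411, and Elane at -0.57, adjusted p = 0.0312), when 5.98% of all genes were called. Mpo, the myeloperoxidase gene, differed by -1.02 ± 0.55 (SE, adjusted p = 0.287) and missed the threshold in that fit (adjusted p = 0.0502).

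Of 13 textbook Ikaros targets of lymphoid cells 10 were measured, of which 3 rose, 2 fell and 5 did not pass. The list was drawn up with earlier calls of these genes known, so this count is no independent evidence. Hes1, a Notch-induced repressor that Ikaros restrains in T cell precursors, read 5.96, 5.44 and 5.55 in the ICN2-negative arrays and 7.38, 7.60 and 7.44 in the ICN2-positive arrays (adjusted p = 0.00723 in limma). Notch3, a Notch receptor, was higher by at least 3.35-fold when the dim ICN2-negative arrays were set to the 40th percentile (adjusted p = 0.00723). For Dtx1, a regulator of Notch signalling, the same bound was 2.10-fold (adjusted p = 0.0416). Both lay below the 40th percentile in all 3 ICN2-negative arrays and passed the filter through the ICN2-positive arrays alone, so the filter set the direction of 2 of the 3 higher calls. Flt3, a receptor of lymphoid and dendritic progenitors, read 9.06, 9.85 and 8.71, then 5.41, 5.56 and 5.53, and lay at nearly the same level in all 3 ICN2-positive arrays (adjusted p = 0.00638). Dntt, the terminal transferase gene, fell by 4.39 on the log2 scale (adjusted p = 0.0481). Its call was lost when any 1 of the 6 arrays was left out (adjusted p = 0.0532 to 0.17), and that of Dtx1 when any array other than ICN2-positive replicate 1 was. The count was then 3 higher and 1 lower without ICN2-positive replicate 1, and 2 higher and 1 lower without any other array. The bright Ikzf1 probe set differed by 0.02 ± 0.07 (SE) between the same arrays, a reading of RNA and not of protein. The part of the Ikaros family in these calls was not tested.

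**Figure D4:**
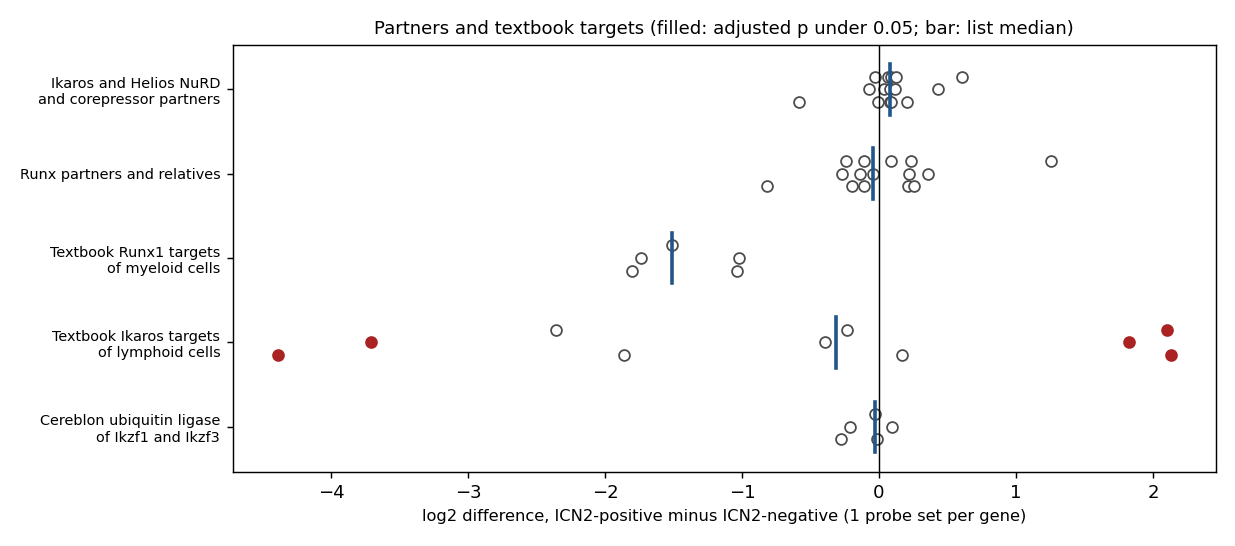
Log2 difference between genotypes (horizontal axis, ICN2-positive minus ICN2-negative) of each measured gene of the 5 partner and target lists, with filled points for an adjusted p under 0.05 and a bar for the list median. Filled points appear only among the textbook Ikaros targets, 3 above 0 and 2 below, and the 5 Runx1 targets lie below 0 with a median of -1.51.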

How the data were processed

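RNA of 6 sorted progenitor samples, amplified from 5 ng per the labels' protocols, was hybridised to Affymetrix arrays. The authors deposited 1 intensity per probe set and array, made with RMA per the submitters' processing notes (version not given in the sources used here), on a linear scale from 5.13 to 24678.6. RMA equalises the arrays' distributions, so a change in total RNA is not seen. Scanner files were not used here, and the number of arrays limits precision. Log2 was taken here. Of 45101 probe sets 64 were controls. Probe sets above the 40th percentile of their array on at least 3 of 6 arrays were tested, which left 27424. limma 3.58.1 in R 4.3.3 (lmFit, eBayes, no covariate) was run on all of them, adjusting p by Benjamini-Hochberg and calling at 0.05, and again on 12837 genes, each read by its brightest probe set. The fit was tested on simulated data. Left-out fits kept the same probe sets. Named were all members, called list genes, the 3 list genes of smallest p and the 3 most alike genes. Chd4, Runx3 and the marker genes were named after their values were seen. The members and lists were chosen with earlier results of these data known. Alternatives covered the filter, normalization, variance model, array weights, offset, probe set choice, replicate number and each array left out.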

Additional observations from a re-analysis of the deposited data

How the results depend on the processing

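No tested member probe set was called under the 9 alternatives that kept all arrays, and 0 to 1 with 1 array left out. At 1 probe set per gene the count was 2 of 7 with array weights, beside 25.4% of all genes, and 0 to 1 with 1 array left out. Over all probe sets the count of calls (728) was 1216 with an intensity trend, 3970 with array weights, 268 with the replicate number as a block and 95 to 860 with 1 array left out. For genes (560) it was 847, 3262, 340 and 99 to 768. The replicate numbers do not pair the arrays by the labels. Same-numbered arrays had deviations from their group means that correlated at 0.183, 0.101 and 0.0945, and with the block no member was called and Dtx1 lost its call (adjusted p = 0.0626). Dtx1 was also not called with log2(intensity + 16) (0.0511), nor Dntt with no filter (0.0546) or robust eBayes (0.0505). With array weights 3 NuRD partners and 6 Runx partners were called. With an intensity trend 1 Runx partner was called, and 0 to 1 with 1 array left out. The Runx1 target count was 0 to 2 with 1 array left out. The Ikaros target count was 0 of 2 measured with the stricter filter and 3 to 4 with 1 array left out. With no filter 1 Runx1t1 probe set was called by diffSplice against the rest of its gene, a contrast among dim values. Signs turned with array weights for Ikzf1 1421303_at (-0.12), Runx1 1422864_at (0.11) and Runx1 1422865_at (0.10). Crbn turned without probe sets of shared sequence (0.27). With 1 array left out signs also turned for 7 probe sets not called, whose differences then ranged from -0.0242 to 0.22 (Ikzf1 1421303_at), -0.0025 to 0.0411 (Ikzf1 1436312_at), -0.0376 to 0.13 (Ikzf5 1436554_at), -0.23 to 0.20 (Runx1 1422864_at), -0.27 to 0.11 (Runx1 1422865_at), -0.44 to 0.0817 (Runx1 1440878_at) and -0.0675 to 0.11 (Cbfb). The cause was not tested.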
